A study of Mus musculus with 12 samples.

Results

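The genes described here are Fabp3, Fabp4 and Fabp5, members of the fatty acid binding protein family, in cultured mouse macrophages. They were found by symbol among the probe sets of an expression array and make up 3 of 22180 genes measured, or 7 of 41345 probe sets (2 for Fabp3, 1 for Fabp4 and 4 for Fabp5). Where a gene had several probe sets, the one with the highest mean level stood for it. Primary macrophages of Cd36 wild type (WT) and Cd36 knockout (KO) genotype were profiled alone and as TAMs, the study's name for macrophages grown for 72 h with 5TGM1, a mouse multiple myeloma cell line. Each genotype was thus present as macrophages and as TAMs, and each of these 4 groups held 3 arrays, numbered 1 to 3 in the labels, and all cells were grown in the same serum-containing medium. The labels give a time in culture for TAMs alone, and co-culture cannot be told apart from it. The sources used here do not give the tissue of the macrophages, the kind of knockout allele or the animals' age.

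Fatty acid binding proteins are small cytoplasmic proteins that hold a long-chain fatty acid in a barrel-shaped pocket and carry it between membranes, lipid droplets, mitochondria and the nucleus. Fabp4 is best known from adipocytes and macrophages, Fabp5 from skin and macrophages, and Fabp3 from heart and skeletal muscle. Both Fabp4 and Fabp5 can deliver ligands to the nuclear receptors of the PPAR family, and Fabp4 is itself a PPARγ target. Cd36, the gene deleted in the KO cells, makes a membrane receptor for long-chain fatty acids and oxidised lipoproteins. The comparisons asked how each gene's RNA level differed between TAMs and macrophages of each genotype, between KO and WT cells in each culture, and whether the co-culture difference depended on the genotype.

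Levels are log2 of the deposited intensity, and a difference of 1 is a 2-fold change. Cd36 itself read 12.10, 12.13 and 12.15 on the WT macrophage arrays and 12.14, 12.53 and 12.29 on the WT TAM arrays. On the KO arrays it read 8.79, 8.63 and 8.78 in macrophages and 8.45, 9.66 and 8.64 in TAMs. The KO groups therefore lay below the WT groups in both cultures (average difference -3.40 ± 0.17 (SE), limma adjusted p = 6.6e-07). A signal remained on the KO arrays, and whether this probe set reads the deleted part is not stated. The Y-linked Uty, Eif2s3y and Kdm5d were high on all 6 KO arrays (7.97 to 9.99), where Xist was low (3.91 to 4.35). The 6 WT arrays carried high Xist (11.08 to 11.32) with the Y-linked genes at 3.05 to 4.10, so genotype and sex of the cells cannot be told apart. As a rough guide to background, 4.10 is the highest level that these Y-linked genes gave on arrays without a Y chromosome pattern. The macrophage markers Adgre1 (12.16 to 12.83) and Cd68 (12.05 to 13.07) were high on every array. WT TAM 2 and KO TAM 1 had the highest stromal marker sums of their groups, and earlier results of these data set them apart, so results are given with and without them. For Fabp4 and Fabp5 they are also the lowest WT TAM array and the highest KO TAM array. Leaving them out therefore narrows the spread of both genes and lowers KO TAMs relative to WT TAMs by construction. For Fabp3 they are the highest WT TAM array and the lowest KO TAM array, so leaving them out raises KO TAMs relative to WT TAMs. Values without them are thus given as a description. The sources used here do not say whether replicates were separate animals or cultures, so the p-values rest on a spread between arrays that may be only technical.

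Fabp4, the adipocyte and macrophage fatty acid binding protein, was the gene with the largest increase in WT TAMs. Its level was 6.87, 6.67 and 6.70 on the WT macrophage arrays and 11.68, 9.79 and 10.68 on the WT TAM arrays. The lowest WT TAM array lay 2.92 above the highest WT macrophage array, so the groups did not overlap. Fabp4 rose by 3.97 ± 0.86 (SE, n = 3 against 3), a 15.7-fold difference with a 95% interval of 2.09 to 5.85 on the log2 scale (limma adjusted p = 0.0109). By size of increase it ranked 1 of 22180 genes, although by p-value it ranked 1248, with its TAM arrays widely spread. The exact two-sided permutation test gave p = 0.1, the smallest value that 3 against 3 arrays allow.

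In KO cells Fabp4 started from a lower level. The KO macrophage arrays read 4.10, 4.73 and 5.29, the first of them at the guide to background, and the KO TAM arrays read 11.63, 8.09 and 7.29. All 3 KO TAM arrays were higher than all 3 KO macrophage arrays, by at least 2.0, but KO TAM 1 lay far above the other KO TAM arrays. Fabp4 rose by 4.30 ± 0.86 (SE, n = 3 against 3), a 19.7-fold difference with a 95% interval of 2.42 to 6.18 (limma adjusted p = 0.013, exact permutation p = 0.1). It ranked 2 of 22180 genes by size of increase. Without KO TAM 1 the increase was 2.98 ± 0.47 (adjusted p = 0.0043). With KO macrophage 1 left out, the difference no longer passed (4.0, adjusted p = 0.0585), nor did it when only the 6 KO arrays estimated the spread (adjusted p = 0.0798).

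Fabp5, the epidermal fatty acid binding protein that macrophages also make, rose in TAMs of both genotypes. It read 8.76, 8.89 and 8.76 on the WT macrophage arrays and 11.53, 10.46 and 11.27 on the WT TAM arrays. The KO macrophage arrays read 7.74, 7.89 and 7.60, and the KO TAM arrays 11.93, 10.25 and 10.73. TAMs and macrophages did not overlap in either genotype, and the distance between the nearest arrays was 1.58 in WT cells and 2.37 in KO cells. The increase was 2.29 ± 0.36 in WT cells, or 4.88-fold (95% interval 1.51 to 3.06, limma adjusted p = 0.0016). In KO cells it was 3.23 ± 0.36, or 9.41-fold (95% interval 2.46 to 4.01, adjusted p = 0.000409), and both exact permutation tests gave p = 0.1. Fabp5 ranked 23 of 22180 genes by size of increase in WT cells and 8 in KO cells.

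Fabp3, the heart and muscle fatty acid binding protein, gave a level above the guide to background in every group and no difference that passed the test. Its WT macrophage arrays read 9.42, 9.34 and 9.38, and its WT TAM arrays 9.18, 9.61 and 9.31. Its KO macrophage arrays read 9.49, 9.60 and 9.38, and its KO TAM arrays 9.45, 9.70 and 9.62. The groups overlapped in both genotypes and both cultures. The co-culture difference was -0.01 ± 0.11 in WT cells (95% interval -0.26 to 0.24, limma adjusted p = 0.978) and 0.10 ± 0.11 in KO cells (-0.15 to 0.35, adjusted p = 0.696). The upper ends of these 95% intervals, 0.24 and 0.35, lay far below the intervals of Fabp4 and Fabp5. They rest on a single probe set, since the further one of Fabp3 read 3.62 to 4.10, no higher than the guide to background.

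**Figure D1:**
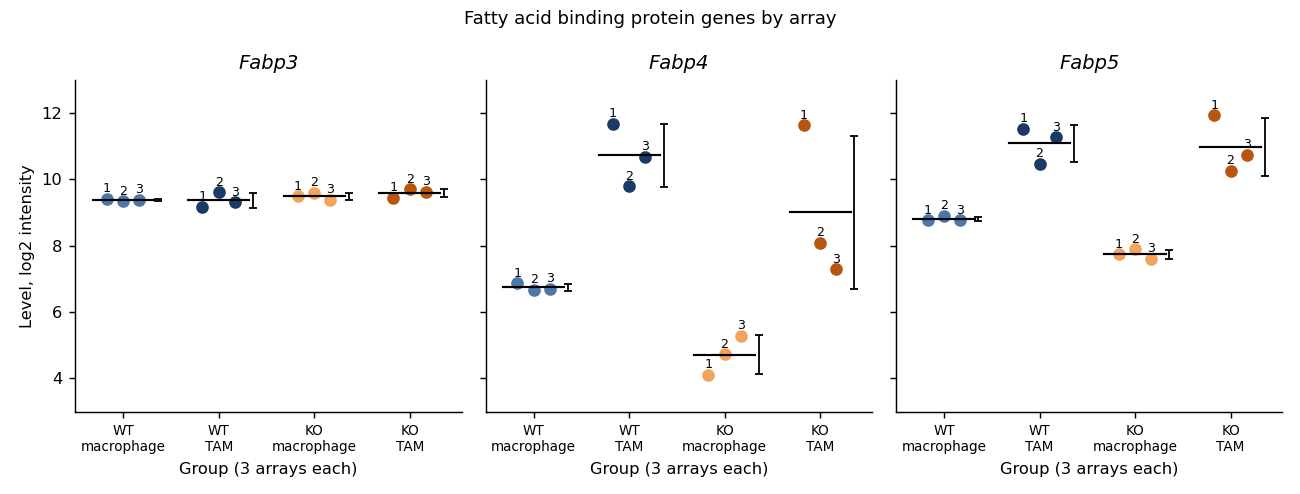
Log2 intensity of Fabp3, Fabp4 and Fabp5 on each of the 12 arrays, by group, with each numbered point an array, horizontal lines for group means and error bars for the SD (n = 3). Fabp4 and Fabp5 lie higher on every TAM array than on every macrophage array of the same genotype, and the groups of Fabp3 overlap between 9.18 and 9.70.

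Fabp4 and Fabp5 were thus called higher in both co-culture comparisons, 2 of the 3 genes each time. Of all genes, 5.89% were called higher in WT TAMs and 2.90% in KO TAMs. Groups that did not overlap, with TAMs higher, were found for 15.5% of all genes in WT cells and 11.7% in KO cells, so non-overlap alone is a common outcome with 3 arrays a group. With both genotypes averaged, Fabp4 rose by 4.14 ± 0.61, or 17.6-fold (95% interval 2.81 to 5.46, limma adjusted p = 0.000621), and Fabp5 by 2.76 ± 0.25, or 6.77-fold (2.21 to 3.31, adjusted p = 3e-05). Permuting the culture labels within each genotype gave an exact two-sided p = 0.005 for each, the smallest that its 400 arrangements can give. The average for Fabp3 was 0.05 ± 0.08 (-0.13 to 0.22, adjusted p = 0.776), and 8.53% of all genes were called higher. Leaving out WT TAM 2 and KO TAM 1 together gave average increases of 3.71 for Fabp4 and 2.68 for Fabp5.

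The co-culture difference did not depend detectably on the Cd36 genotype for any of the 3 genes. The KO difference minus the WT difference was 0.32 ± 1.22 for Fabp4 (95% interval -2.34 to 2.98, limma adjusted p = 0.964). For Fabp5 it was 0.95 ± 0.50 (-0.15 to 2.04, adjusted p = 0.591), and for Fabp3 0.11 ± 0.16 (-0.24 to 0.46, adjusted p = 0.882). Of all genes, 0.194% were called in this comparison, in either direction. The intervals for Fabp4 and Fabp5 reach past a 2-fold difference, so equal responses in the genotypes are not shown. For Fabp4 the sign also turned with single arrays, to -0.99 without KO TAM 1 and -0.14 without WT TAM 2, and to -1.45 (adjusted p = 0.149) without both.

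**Figure D2:**
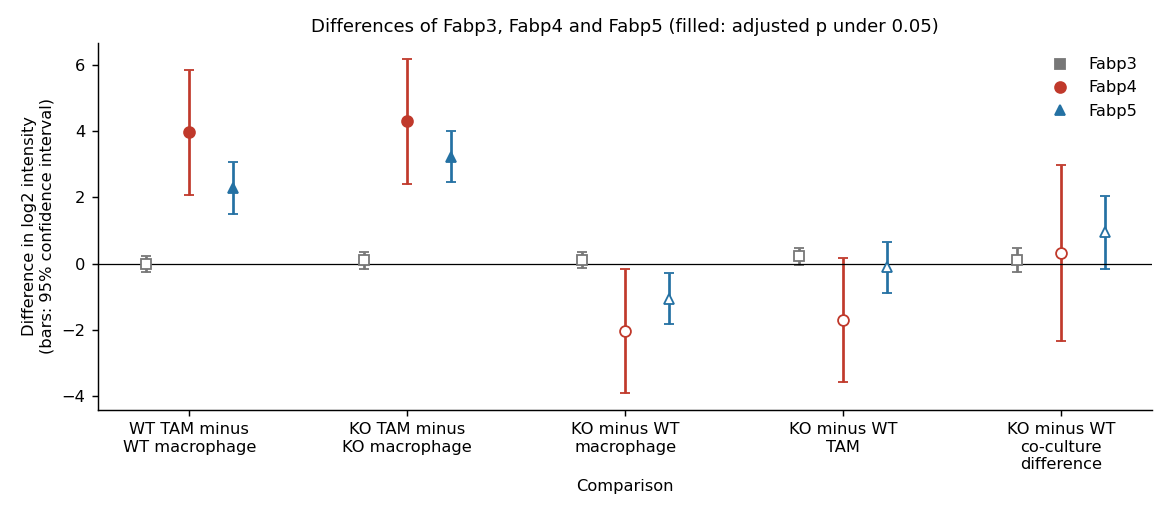
Differences in log2 intensity for Fabp3, Fabp4 and Fabp5 in each comparison, with points for the estimates (filled where the adjusted p was under 0.05) and bars for their 95% intervals. Both co-culture intervals of Fabp4 and Fabp5 lie above 0, those of Fabp3 cross 0, and the interaction intervals of all 3 genes cross 0.

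Among macrophages grown alone, the KO arrays all read lower than the WT arrays for both Fabp4 and Fabp5. The distance between the nearest arrays was 1.38 for Fabp4 and 0.87 for Fabp5, and 17.7% of all genes had KO macrophages lower without overlap. The KO minus WT difference was -2.04 ± 0.86 for Fabp4 (95% interval -3.92 to -0.16, limma adjusted p = 0.164) and -1.06 ± 0.36 for Fabp5 (-1.84 to -0.29, adjusted p = 0.0783). Neither was called with the spread shared over 4 groups, so 0 of the 3 genes were called, while 6.13% of all genes were called lower (before adjustment, the p of Fabp4 was 0.0361). When the 6 macrophage arrays alone estimated the spread, without the widely spread TAM arrays, Fabp4 had an adjusted p of 0.00209 and Fabp5 of 0.000313. That fit also called far more of all genes than the main fit did, so passing was more common there (counts in the section on processing). The difference for Fabp3 was 0.11 ± 0.11 (-0.14 to 0.36, adjusted p = 0.598).

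Among TAMs the genotypes overlapped for all 3 genes. The KO minus WT difference was -1.71 ± 0.86 for Fabp4 (95% interval -3.59 to 0.17, limma adjusted p = 0.245, exact permutation p = 0.3). It was -0.11 ± 0.36 for Fabp5 (-0.89 to 0.66, adjusted p = 0.893, exact permutation p = 0.9) and 0.22 ± 0.11 for Fabp3 (-0.03 to 0.47, adjusted p = 0.253, exact permutation p = 0.2). No member was called, while 7.19% of all genes were called lower. For Fabp4 this rested on KO TAM 1, which read nearly as high as the highest WT TAM array: without it the difference was -3.03 (adjusted p = 0.00122). For Fabp5 the sign turned, to 0.11, 0.25 and 0.01, without WT TAM 1, KO TAM 2 and KO TAM 3 respectively. For Fabp3 the difference passed the test without WT TAM 2 (0.35, adjusted p = 0.0498). Without WT TAM 2 and KO TAM 1 together, the differences were -3.49 for Fabp4, -0.90 for Fabp5 and 0.41 for Fabp3. For Fabp3, WT TAM 2 was the highest WT TAM array and KO TAM 1 the lowest KO TAM array. For all 3 genes the widening without these arrays thus follows from which arrays were left out. It is no support for a genotype difference.

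With both cultures averaged, Fabp4 was lower in KO cells by the test, at -1.87 ± 0.61 (95% interval -3.20 to -0.55, limma adjusted p = 0.0464, exact stratified permutation p = 0.03). This call was at the margin: it was lost without any 1 of 10 of the 12 arrays (adjusted p up to 0.108) and held without WT TAM 2 (adjusted p = 0.0389) or KO TAM 1 (0.000168). Fabp5 had an average difference of -0.59 ± 0.25 (-1.13 to -0.04, adjusted p = 0.125), which passed the test without WT TAM 2 (-0.74, adjusted p = 0.0483) or KO TAM 1 (-0.83, 0.00443). Fabp3 differed by 0.17 ± 0.08 (-0.01 to 0.35, adjusted p = 0.171) and passed without WT TAM 2 (0.23, adjusted p = 0.0339). Leaving out WT TAM 2 or KO TAM 1 moves the difference of each of the 3 genes away from 0 by construction. Thus 1 of the 3 genes was called lower, against 11.3% of all genes.

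The spread among TAM arrays of 1 group was wide for Fabp4 and Fabp5, though not for them alone. The SD of Fabp4 was 0.95 among WT TAMs and 2.31 among KO TAMs, against 0.11 and 0.59 among the macrophages of these genotypes. That of Fabp5 was 0.56 and 0.87 among TAMs, against 0.07 and 0.14. The median SD over all genes was 0.140 and 0.144 among TAMs, against 0.096 and 0.105. Both genes were lowest on WT TAM 2 and highest on WT TAM 1 among WT TAMs, and both were highest on KO TAM 1 among KO TAMs. The lowest KO TAM array was array 3 for Fabp4 and array 2 for Fabp5. The SD of Fabp3 was 0.22 in WT TAMs and 0.13 in KO TAMs, nearer to the median gene. Some other genes were spread as widely in 1 of the groups. The guanine deaminase Gda, picked for its likeness to Fabp4 over these arrays, read 10.69, 8.36 and 6.98 on the KO TAM arrays. The cholesterol exporter Abcg1 had an SD of 0.93 among WT TAMs but of 0.30 among KO TAMs.

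Adipocyte, keratinocyte and muscle markers gave little signal, while endothelial markers went both ways. Of 8 adipocyte markers measured, the summed intensity was 219 to 238 for macrophages and 214 to 219 for TAMs of WT genotype. For KO cells it was 232 to 273 and 228 to 242. Adipoq, the adipocyte hormone adiponectin, stayed between 3.35 and 3.85, never above the guide to background. Keratinocyte markers summed to 148 to 175 over the 12 arrays and heart and skeletal muscle markers to 282 to 340. For these 3 cell types the ranges of TAM and macrophage arrays met or overlapped in each genotype. Endothelial cells can also express Fabp4 and Fabp5. Of 10 endothelial markers 2 were called higher and 1 lower in the average co-culture comparison, while Tek never exceeded the guide to background. Kdr, the VEGF receptor, rose by 1.35 (limma adjusted p = 0.0023), from 4.94, 5.02 and 5.31 to 7.73, 6.27 and 7.26 in WT cells and from 4.95, 4.95 and 5.44 to 6.49, 5.54 and 5.41 in KO cells. Among the TAM arrays of each genotype Kdr ran in the same order as Fabp4. Vwf, the von Willebrand factor, rose by 0.68 (0.0197), and the adhesion molecule Pecam1 fell by 1.89 (0.000151). Cdh5 (-0.17), Tek (-0.06), Tie1 (-0.03), Esam (-0.07), Cldn5 (0.06), Egfl7 (0.06) and Gpihbp1 (0.19) were not called. The median over the 10 markers was 0.01. The summed intensity of all 10 markers was lower in TAMs (417 to 561 against 599 to 635 in WT cells, 473 to 600 against 813 to 860 in KO cells), but that of the 9 markers other than Pecam1 was higher (321 to 516 against 268 to 278 in WT cells, 295 to 354 against 262 to 290 in KO cells). The sum without Pecam1 was chosen after seeing the data, and of its markers Kdr and Vwf alone were called higher. Of 9 myeloma and plasma cell markers only 2, Jchain (3.28 to 3.84) and Tnfrsf17 (3.35 to 4.09), were never above the guide to background. On average 1 of the 9 was called higher (Slamf7, 0.23, limma adjusted p = 0.0229) and 1 lower (Xbp1, -0.37, 0.00145). The sum of the 9 was 5382 to 5495 against 5161 to 5389 in WT cells (TAMs first). In KO cells it was 6384 to 7230 against 5777 to 5927. The B cell markers summed to 211 to 328 against 353 to 397 in WT cells and to 288 to 847 against 729 to 792 in KO cells.

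Stromal and proliferation markers also moved between groups and arrays. The summed intensity of 12 stromal markers was 4989 to 11744 on WT TAM arrays, against 3257 to 3775 for their macrophages. On KO TAM arrays it was 874 to 2980, against 538 to 559, and 7 of the 12 were called higher in the average co-culture comparison. WT TAM 2, the array with the lowest Fabp4 among WT TAMs, had the highest stromal sum of its group (11744). KO TAM 1, the array with the highest Fabp4 among KO TAMs, also had the highest stromal sum of its group (2980). The sum of 13 proliferation markers was 11152, 7432 and 12425 on WT TAM 1, 2 and 3, against 7622 to 8196 in WT macrophages, and 3355 to 4474 on the KO arrays. Macrophage markers summed to 41882 to 46271 outside the KO TAMs and to 51731, 49606 and 49287 on KO TAM 1, 2 and 3. The part of these shifts, and of the endothelial ones, in the levels of Fabp4 and Fabp5 was not tested. In these bulk samples a smaller share of cells of a type and less RNA per cell cannot be told apart.

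The 4 probe sets of Fabp5 gave the same direction. The first 2 read nearly alike on every array, such as 8.76 and 8.65 on WT macrophage 1, so they may not be separate checks. In WT cells the TAM increase was 2.29, 2.34, 2.12 and 2.47, and in KO cells 3.23, 3.22, 2.57 and 2.76 (limma adjusted p from 0.00124 to 0.00749 over all probe sets). The probe set with the lowest mean read 4.48, 4.71 and 4.44 in WT macrophages and 7.73, 6.29 and 7.01 in WT TAMs, and its WT groups did not overlap either. In KO macrophages it read 3.90, 3.97 and 3.99, all under the guide to background, and in KO TAMs 7.79, 5.72 and 6.64, so its KO increase of 2.76 is measured against values that may be background. The genotype differences among macrophages were -1.06, -0.98, -0.58 and -0.59, none of them called, and the last has the same limit. The KO minus WT co-culture differences were 0.95, 0.89, 0.45 and 0.30, also none called and with that limit for the last. The interaction value given above for Fabp5 is thus the largest of its probe sets. The same holds for its KO increase and, in size, for its macrophage genotype difference, but not for its WT increase. The further probe set of Fabp3 read 3.62 to 4.10 on all 12 arrays, no higher than the guide to background, with co-culture differences of -0.07 in WT and 0.05 in KO cells. Fabp4 had a single probe set, so its values have no such check. The sources used here do not say which stretch of the transcript each probe set reads, and related gene copies such as Fabp5l2 and Fabp3-ps1 could share probes.

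**Figure D3:**
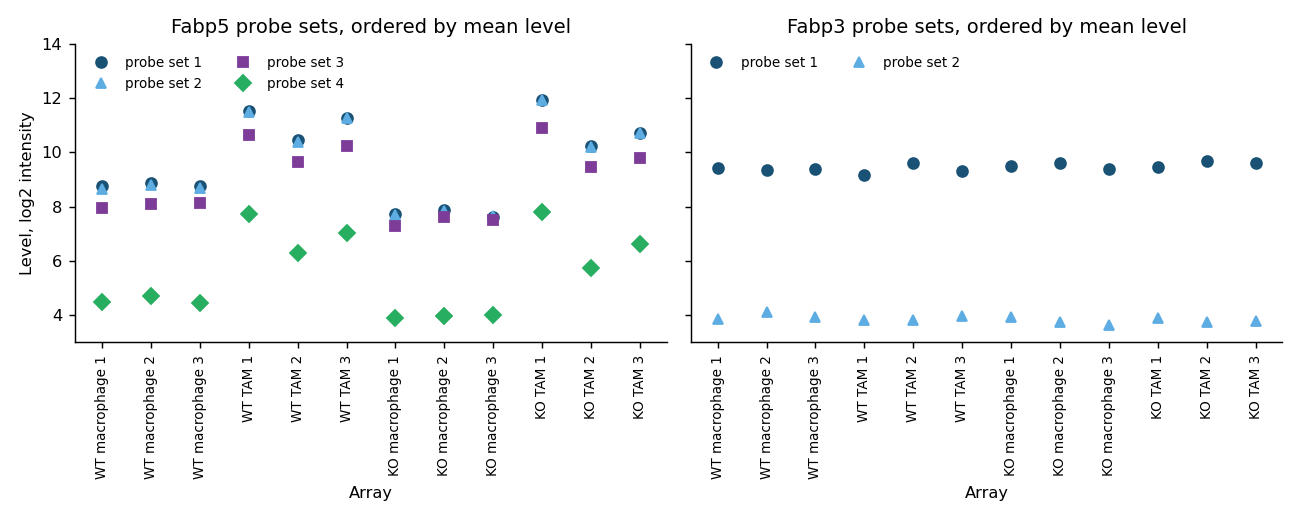
Log2 intensity of the 4 probe sets of Fabp5 (left) and the 2 of Fabp3 (right) on each of the 12 arrays, with each marker shape a probe set numbered by its mean level. All 4 probe sets of Fabp5 are higher on TAM arrays, and the further probe set of Fabp3 stays at or below 4.10.

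Within the wider family of intracellular lipid binding proteins, 14 of 15 listed genes were measured. In the average co-culture comparison Fabp4 and Fabp5 were called higher, Fabp7 lower and 11 not called, with a median difference of 0.02 against -0.00 over all genes. Fabp7, the brain fatty acid binding protein, read 8.94, 8.53 and 8.50 in WT macrophages and 7.56, 8.42 and 7.65 in WT TAMs. It read 7.78, 8.09 and 7.95 in KO macrophages and 6.45, 7.20 and 7.05 in KO TAMs, so TAMs lay below macrophages in both genotypes. The average decrease was -0.91 ± 0.17, or 1.88-fold (limma adjusted p = 0.00266), opposite in sign to Fabp4 and Fabp5. Its average genotype difference was -0.85 ± 0.17 (adjusted p = 0.00359).

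On mouse chromosome 3, by the RefSeq table for GRCm38.p6, Fabp5, Pmp2, Fabp9 and Fabp4 are consecutive protein-coding genes, with Fabp12 close by. Fabp3 lies on chromosome 4 and Fabp7 on chromosome 10. The neighbours did not share the increase. Pmp2, the myelin fatty acid binding protein, read 2.90 to 3.90 over the 12 arrays, and Fabp9, known from testis, 3.23 to 3.68, both below the guide to background on every array. Fabp12 read 3.99 to 4.78 and was not called. Among members located elsewhere, Fabp1 of liver read 3.03 to 3.38, Fabp2 of intestine 4.17 to 4.53 and Fabp6, the ileal bile acid binding protein, 3.25 to 4.11. The retinoid binding relatives Crabp1 (3.96 to 4.76), Crabp2 (5.45 to 5.99), Rbp2 (3.91 to 4.62) and Rbp7 (4.50 to 5.13) each stayed within 1 log2 unit across all arrays.

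**Figure D4:**
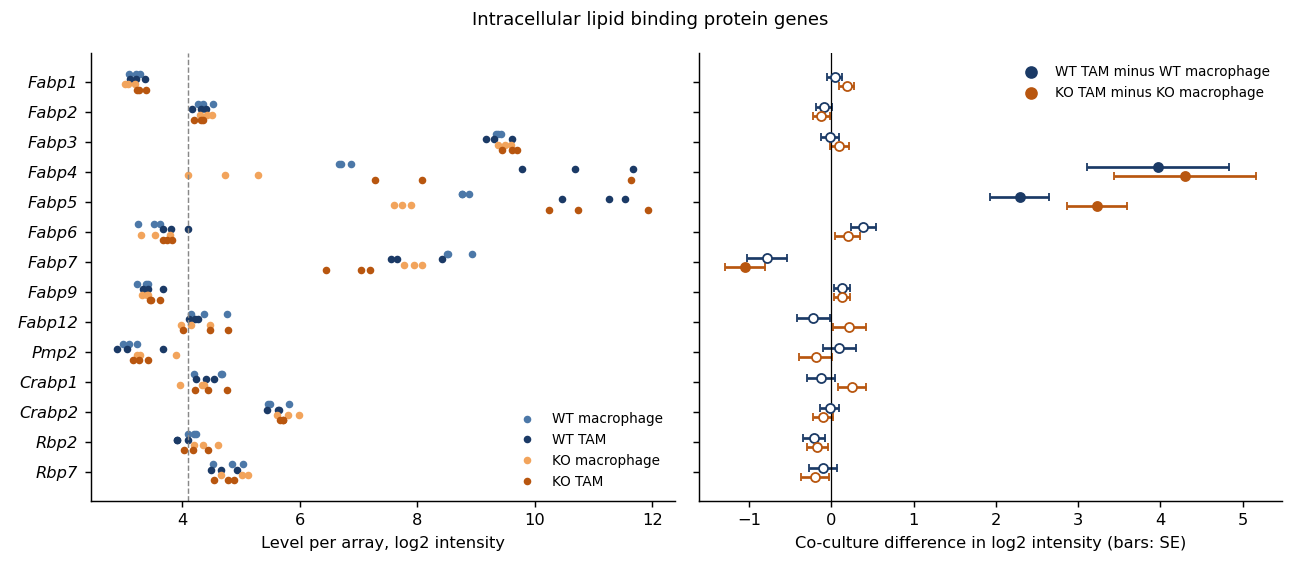
Left, log2 intensity of the 14 measured genes of the family on each array, coloured by group, with the guide to background of 4.10 as a dashed line. Right, their co-culture differences in WT and KO cells with SE bars, filled where the adjusted p was under 0.05, with Fabp4 and Fabp5 far to the right of 0 in both genotypes.

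Lists of other fatty acid genes had medians of 0.03 to 0.20 in the average co-culture comparison, against 0.02 for the family list above. As lists they moved no less than the family. Of 18 measured genes of uptake and activation, 4 were called higher and 2 lower in the average co-culture comparison (median 0.07, against -0.00 for all genes). Slc27a1, a fatty acid transport protein, rose by 0.79 (limma adjusted p = 6.3e-06), the scavenger receptor Msr1 by 1.53 (1.5e-05) and the lysosomal lipase Lipa by 0.44 (0.000269), while the acyl-CoA synthetase Acsl5 fell by 0.86 (0.000297). Cd36 differed by 0.19 (adjusted p = 0.542). Of 19 lipid droplet and lipolysis genes, 5 were higher and 1 lower (median 0.03). The droplet coat proteins Plin2 and Plin3 rose by 1.15 (0.000705) and 0.62 (4.3e-05), Hilpda, an inhibitor of lipolysis, by 0.73 (0.00899), and Bscl2, the seipin of droplet assembly, by 0.33 (0.00236).

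The spread of Plin2 among WT TAMs ran otherwise than that of Fabp4. Plin2 read 11.22, 12.43 and 11.38 on WT TAM 1, 2 and 3, highest on WT TAM 2, where Fabp4 and Fabp5 were lowest. Among KO TAMs it read 11.05, 11.20 and 10.74, without the peak on KO TAM 1 that Fabp4 had.

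PPAR receptors and their targets, 18 measured, had 3 genes higher and 1 lower (median 0.20). Rxra, the partner receptor of PPARs, rose by 0.40 (limma adjusted p = 0.000909) and Cpt1a, which admits fatty acids to mitochondria, by 0.92 (0.000197). The coactivator Ppargc1b fell by 0.28 (0.0202), or 0.0546 when KO macrophage 1 was left out. The receptors differed by -0.04 for Pparg (0.863), 0.25 for Ppard (0.215) and 0.08 for Ppara (0.496), none called, and Lpl, which also is a target, by -0.36 (0.0766). Of 17 mitochondrial oxidation genes 4 were higher and 0 lower (median 0.09): besides Cpt1a, these were Hadh (0.30, 0.00231), Acaa2 (0.51, 0.00269) and Etfdh (0.41, 0.00312). At 4.14 and 2.76, the differences of Fabp4 and Fabp5 exceeded those of every gene named from these 4 lists. By this difference Fabp4 ranked 1 and Fabp5 12 of 22180 genes, and the members were chosen with earlier results known. Their lead over single list genes is thus no separate result.

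**Figure D5:**
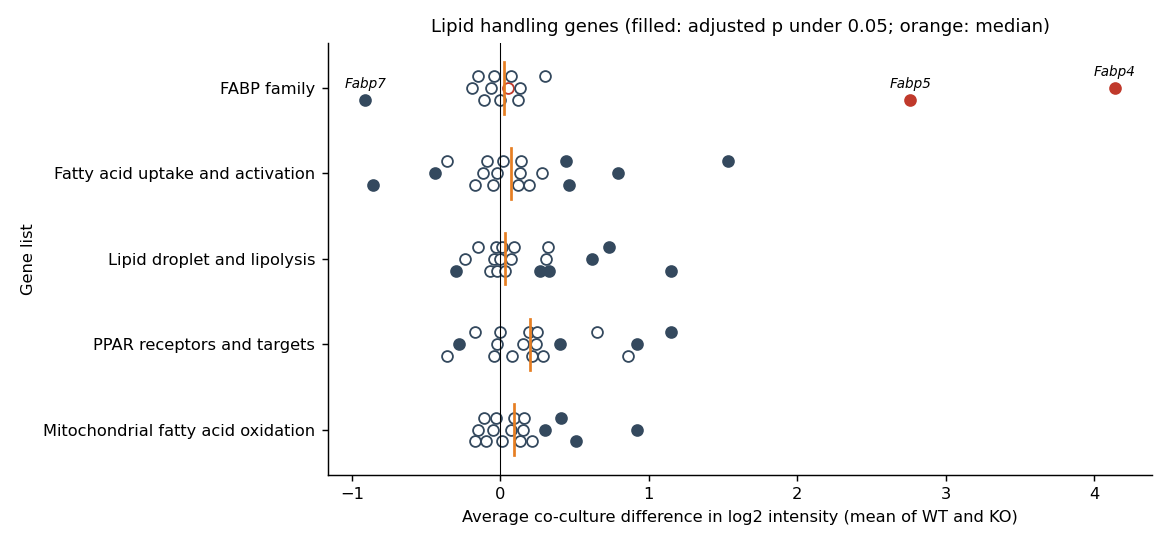
Average co-culture difference in log2 intensity of each measured gene of the 5 lists, with each point a gene (red for Fabp3, Fabp4 and Fabp5), filled where the adjusted p was under 0.05, and an orange line at each list's median. Fabp4 and Fabp5 lie at 4.14 and 2.76, and most genes of all 5 lists lie near 0.

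The genes whose levels ran most like each member over the 12 arrays were ranked by Pearson's r among 10324 genes at or above the median level. The arrays fall into groups, so these values describe the pattern shared over groups and arrays. For Fabp4 the nearest were Ednrb, the endothelin receptor type B (r = 0.993), the guanine deaminase Gda (0.992), the thromboxane synthase Tbxas1 (0.989), the lipid transporter Abca3 (0.987) and the semaphorin receptor Plxnc1 (0.986). Ednrb read 12.15, 10.88 and 11.26 on WT TAMs and 12.29, 10.03 and 9.17 on KO TAMs, highest on array 1 of each group as Fabp4 was. Its means in WT and KO macrophages were 8.52 and 6.89.

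For Fabp5 the nearest were the growth factor Pdgfc (r = 0.981), the ubiquitin ligase component Fbxo22 (0.979), the chemokine Ccl12 (0.979), the copper transporter Slc31a1 (0.978) and the Fc receptor Fcgr3 (0.977). Pdgfc had a mean of 10.01 in WT TAMs against 7.51 in their macrophages, and of 9.76 against 6.87 in KO cells, with 10.80, 9.42 and 9.08 on the KO TAM arrays. For Fabp3 the nearest were Cela1 (0.911), Fbxo38 (0.894), B2m (0.884), Nkiras1 (0.877) and Shfl (0.870). Fabp3 varied only between 9.18 and 9.70, so its likeness rests on small differences.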

How the data were processed

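RNA of 12 macrophage samples was labelled with a whole-transcript GeneChip kit and hybridised to 1-colour arrays. The authors deposited 1 table of intensity values, normalized by RMA (background correction, quantile normalization and summary over a probe set's probes) per the submitters' processing notes, which also name limma. Quantile normalization hides changes shared by most genes. The intensities were linear and began at 3.57, and their log2 was taken with no pseudocount. The precision of array values is limited by the 3 arrays of a group. Of 41345 probe sets, 23521 had 1 symbol; 1814 with several and 16010 with none were left out, which left 22180 genes. The sources used here name no genome build.

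limma 3.58.1 in R 4.3.3 fitted 4 group means to all genes (lmFit and eBayes), with Benjamini-Hochberg adjustment over all genes and calls at an adjusted p under 0.05. Exact two-sided permutation tests over arrays used Python 3.11.15. The code was tested on simulated data. Over 18 pairs of same-numbered arrays the correlation of deviations was -0.06 to 0.27, and 2 exceeded 0.1. Both were between WT and KO TAMs, at 0.27 for arrays 1 and 0.25 for arrays 2, against 0.03 for arrays 3. The main fit did not take the numbers to pair the arrays, and a replicate block was an alternative. Whether same-numbered TAM arrays shared a co-culture run is not stated and was not tested.

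The members and gene lists were chosen with earlier results of these data known. Named were the 3 genes, Cd36, the family, up to 4 called genes of each list with the smallest adjusted p, and the 5 genes most like each member (predicted genes and some gene families left out). Pparg, Ppard, Ppara, Lpl, single marker genes and the genes of the closing section were chosen after their values were seen. Alternatives were other normalization, probe set, filter, offset, weights and spread settings, a replicate block, and leaving out arrays.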

Additional observations from a re-analysis of the deposited data

How the results depend on the processing

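The increases of Fabp4 in WT TAMs and of Fabp5 in TAMs of both genotypes, and both averages, passed the test under every alternative set beforehand, as Fabp4 in KO TAMs did in 14 of 16. No interaction of the 3 genes passed in any. Values that changed call or sign follow, each with its adjusted p where a call changed; the cause was not tested. Genes called numbered 2561 (WT co-culture), 1449 (KO co-culture), 2512 (macrophage genotype), 2710 (TAM genotype), 43 (interaction), 3811 and 4766 (average co-culture and genotype). Quantile normalization applied again gave Fabp3 0.01 in WT co-culture, and the mean of probe sets gave it -0.04 for macrophage genotype. The interaction count was 101 with a filter on dim genes, 105 with 16 added before log2 and 99 with trended robust shrinkage; with 16 added, the Fabp4 interaction was -0.12, and its average genotype difference was -1.59 (0.0934), or -1.87 (0.0945) with trended shrinkage. Array weights gave counts of 3976, 2705, 4923, 4725 and 761 in the first 5 comparisons; macrophage genotype differences of -2.05 (0.00932) for Fabp4 and -1.06 (0.00424) for Fabp5; TAM genotype differences of 0.38 (0.015), -2.81 (0.0036) and -0.81 (0.0401) for Fabp3, Fabp4 and Fabp5; a Fabp4 interaction of -0.76; and average genotype differences of 0.25 (0.00957) for Fabp3 and -0.93 (0.00104) for Fabp5. With the arrays of a comparison alone, Fabp4 was 4.30 (0.0798) in KO co-culture, and Fabp4 and Fabp5 were -2.04 (0.00209) and -1.06 (0.000313) for macrophage genotype; counts were 505 (KO co-culture), 4716 (macrophage genotype) and 638 (TAM genotype). The replicate block gave an interaction count of 26 and changed no other call of the 3 genes. The Fabp7 difference in WT co-culture (-0.78, 0.0562) passed with it (0.0472), with arrays centred (0.0425), the dim-gene filter (0.0391) and array weights (0.00312), without WT TAM 2 (0.00806) and without both WT TAM 2 and KO TAM 1 (0.000628). Without WT TAM 2 and KO TAM 1, the lowest WT and the highest KO TAM array for Fabp4 and Fabp5, which fixes the direction of the shift, the counts were 4049 (WT co-culture), 4480 (TAM genotype) and 1496 (interaction); Fabp3, Fabp4 and Fabp5 were 0.41 (0.0111), -3.49 (0.000223) and -0.90 (0.00291) for TAM genotype; the Fabp4 interaction was -1.45, and the average genotype differences of Fabp3 and Fabp5 were 0.26 (0.00862) and -0.98 (7.1e-05). For Fabp3, WT TAM 2 and KO TAM 1 were the highest WT and the lowest KO TAM array, which fixes its direction too. The further probe set of Fabp3 was an alternative chosen after seeing the data. It gave -0.19 and -0.07 for macrophage and TAM genotype, -0.01 for average co-culture and -0.13 for average genotype.

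Leaving out 1 array at a time gave counts of 1475 to 2671 (WT co-culture), 611 to 1659 (KO co-culture), 1403 to 1503 (macrophage genotype), 1749 to 3710 (TAM genotype) and 14 to 444 (interaction). Fabp3 ranged from -0.13 to 0.09 in WT co-culture, 0.13 to 0.35 for TAM genotype, -0.01 to 0.09 for average co-culture and 0.12 to 0.23 for average genotype. Fabp4 ranged from 2.98 to 5.15 in KO co-culture, -3.03 to -0.86 for TAM genotype, -0.99 to 1.18 for interaction and -2.53 to -1.45 for average genotype. Fabp5 ranged from -0.59 to 0.25 for TAM genotype and -0.83 to -0.41 for average genotype. Cd36 in KO co-culture was -0.19 without KO TAM 2.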

Other observations

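Several genes that handle fatty acids around the binding proteins were lower in KO than in WT cells, where 11.3% of all genes were called lower. In the average genotype comparison 9 of 17 measured genes of mitochondrial fatty acid oxidation were called lower and 0 higher, with a median of -0.24 against 0.03 over all genes. Cpt1a, the entry step, differed by -1.24 ± 0.11 (limma adjusted p = 2.7e-05), the short-chain dehydrogenase Acads by -0.57 (0.000322) and the carnitine carrier Slc25a20 by -0.41 (0.0128). Of 18 genes of uptake and activation, 7 were called lower and 1 higher (median -0.25). The 7 include Cd36 itself, which is lower by design, and among the others were Slc27a1 (-1.06 ± 0.06, adjusted p = 1.1e-06), Msr1 (-1.32, 3e-05), the lipoprotein lipase Lpl (-0.84, 0.000586) and the caveolar protein Cav1 (-1.06, 0.0057). The gene called higher was Acsl4 (0.39, 0.00178).

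Lipid droplet genes showed less of this, with 2 of 19 lower (Plin2 at -0.76, adjusted p = 0.00814, and Plin3 at -0.21, 0.0299). The PPAR list went both ways, with 4 higher and 6 lower of 18. Pparg (0.52, 0.00388), Rxra (0.42, 0.000592) and the cholesterol exporters Abca1 (0.68, 0.0198) and Abcg1 (0.90, 0.0163) were higher in KO cells. The pyruvate dehydrogenase kinase Pdk4 (-1.70, 0.00424) was lower. The 6 lower genes also include Cd36, lower by design, and Cpt1a and Plin2, which other lists above hold too. All 13 proliferation markers measured (median -1.60) and 9 of 12 stromal markers (median -1.37, 0 higher) were also called lower in KO cells, and the part of these shifts in the differences above was not tested.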
